A study of Mus musculus with 12 samples.

Results

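The proteasome subunit genes are the rows of the count table whose mouse symbol begins with Psm, carries a family letter from a to g and ends in a number. The rule found 47 of the 17210 genes in the table, and 46 of the 47 passed the filter on low counts that left 11177 genes to test. The gene that did not pass was Psmb8. By role they comprise 7 alpha and 7 beta subunits of the constitutive core, 3 inducible beta subunits, 1 beta subunit of the thymus, 6 ATPases and 3 further subunits of the base, 8 subunits of the lid, 3 base and 4 core assembly chaperones, 4 activators and 1 regulator. Roles were taken from textbook knowledge.

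The series asks how GATA1 and SREBP2, the transcription factor that drives cholesterol synthesis, act on gene expression in G1E-ER4 cells. These mouse erythroid progenitor cells lack their own GATA1 and carry GATA1 joined to a hormone-binding domain of estrogen receptor, which β-estradiol (EST) switches on. All 4 groups were transduced with a retrovirus for 24 h, and mRNA was sequenced as single 50-base reads. Vector cells received the empty virus and SREBP2 cells a virus with the active fragment, amino acids 1 to 468, and neither was given EST. Vector+EST and SREBP2+EST cells carried the same viruses and had EST for 6 h. The dose reads 500 nM in the protocol of the samples, but 200 nM in the text on the design. Each group held 3 libraries. The labels give the strain as C57BL/6J and the cell type as embryonic stem cells. They do not say whether the libraries of a group came from separate cultures, so the p-values below measure the spread between these libraries, which may be technical. Each library is named by the number its column of counts carries, and values in each group are listed in the order of those numbers (Vector 1, 4 and 5, SREBP2 1, 3 and 5, Vector+EST 1, 3 and 5, SREBP2+EST 1, 2 and 5).

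The proteasome degrades proteins tagged with ubiquitin. Its core is a barrel of alpha and beta rings, with the protease sites on the inner face of the beta rings, and a cap made of a base and a lid binds, deubiquitinates, unfolds and threads substrates into it. Other activators can take the place of the cap, dedicated chaperones assemble the parts, and inducible beta subunits replace the constitutive ones in immune cells, changing the peptides offered to MHC class I. When proteasome activity falls short, the membrane-bound factor NRF1 (Nfe2l1), paired with small MAF proteins, raises the subunit genes together through antioxidant response elements. In red cell development the ubiquitin-proteasome system is known for clearing proteins as erythroblasts mature.

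The mouse Srebf2 row was examined first, in which reads of the cells' own gene and any from the introduced one cannot be told apart. Srebf2 reads lay between 355 and 370.4 CPM (counts scaled to a common library size with TMM factors) in Vector, between 432 and 456 in Vector+EST, and between 797 and 837 in the 6 libraries with added SREBP2. Library totals ran from 18700959 to 19152281 estimated counts. A level of 3 counts, taken as the limit of detection, corresponded to 0.153 to 0.163 CPM. Intervals and limits of this kind cover counting error only. All 10 erythroid markers passed the filter, with summed levels of 10268 to 10726 CPM in Vector and 6280 to 7432 CPM in the other groups. Of these 10, 2 were called higher and 7 lower with EST in Vector cells, and 2 higher and 6 lower with SREBP2 without EST. Over all tested genes 35.2% were higher and 35.5% lower with EST, and 37.7% and 33.8% with SREBP2. With SREBP2 under EST, 2 markers were higher and 2 lower, so the sum does not stand for every marker. Of the embryonic stem cell markers in the table, 0 of 4 passed it, and their summed level was at most 0.647 CPM. All 6 fibroblast markers passed, with sums of 19.2 to 20.1 CPM in Vector, 8.63 to 13.7 in SREBP2, 4.74 to 34.7 in Vector+EST and 23.1 to 39.1 in SREBP2+EST. Of these 6, 4 were called higher and 1 lower with EST in Vector cells (median log2 fold change 4.63), 1 higher and 1 lower with SREBP2 without EST, and 1 higher with SREBP2 under EST. SREBP2 against EST had 1 higher and 3 lower (median -5.17), and EST in SREBP2 cells 0 called but 5 at an unadjusted p under 0.05 (median 5.81). Sums of macrophage and dendritic markers stayed between 3.84 and 6.12 CPM, and sums of T cell markers between 3.13 and 5.23 CPM. The part of these cell markers in the results below was not tested.

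Some libraries stood apart from their groups. Over the proteasome genes, SREBP2 library 1 lay nearer the mean of SREBP2+EST (root mean square log2 distance 0.129) than that of its own 2 companions (0.158), and SREBP2+EST library 5 lay nearer the mean of SREBP2 (0.0808) than its own (0.145). The chi-square per gene between libraries of a group, which is near 1 where only counting error separates them, was 9.02 and 10.7 for SREBP2 library 1 against the others and 3.30 between those others. In SREBP2+EST, library 1 gave 5.05 and 4.16 against the others, which gave 3.03 between them. It ran from 2.18 to 2.73 in Vector and from 1.56 to 2.30 in Vector+EST, so no pair of libraries was a duplicate within counting error. Counts that rest on the SREBP2 groups are therefore also given without library 1 of both, and, chosen after seeing the data, without SREBP2 library 1 and SREBP2+EST library 5. Whether the latter pair carries exchanged labels was not tested, and the EST effect in SREBP2 cells rests on both of them.

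Promoter sequences show what the genes that moved most carry at their start sites. RefSeq promoters on GRCm38.p6, from 250 bases before to 50 after the start, were at hand for 40 of the 47 genes. On both strands, the GATA-type motif AGATAA was found in 3 of these 40 (7.5%), against 8.40% of 9055 tested genes with a promoter. The 3 were Psmf1 (first base 101 upstream of the start), Psmd9 (77 upstream, minus strand) and Psmc6 (39 downstream). Among members whose average log2 CPM was 3 or more, these also had the 3 largest rises with EST. The scarce Psmb9 (1.57) and Psmb11 (0.62) rose by more on the log2 scale than Psmc6 (0.49). Whether the motif has a part in these rises was not tested. Among tested genes, 36.1% with AGATAA rose with EST and 35.2% without it. The 250 bases before the RefSeq start of Psmf1 and Psmd9 are printed with this motif in capitals (TTATCT on the printed strand of Psmd9). The start used for Psmf1 is that of its shorter transcripts, so the window lies inside the gene's full span (chr2:151716062-151744199), in an intron of a longer transcript. Beside them stand those of Psmd5 and Psme3, the largest falls, with the E-box CACGTG of Psme3 in capitals. Psmd9 holds a CACGTG too, left in lower case. The Psmd5 window held none of the 5 motifs searched.
Psmf1 (chr2:151741311-151741560, minus strand): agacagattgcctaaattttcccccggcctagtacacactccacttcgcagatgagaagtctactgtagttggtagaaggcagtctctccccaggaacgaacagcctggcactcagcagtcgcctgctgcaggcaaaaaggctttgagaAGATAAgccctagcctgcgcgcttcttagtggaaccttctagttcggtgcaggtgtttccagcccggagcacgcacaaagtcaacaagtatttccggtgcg
Psmd9 (chr5:123227940-123228189, plus strand): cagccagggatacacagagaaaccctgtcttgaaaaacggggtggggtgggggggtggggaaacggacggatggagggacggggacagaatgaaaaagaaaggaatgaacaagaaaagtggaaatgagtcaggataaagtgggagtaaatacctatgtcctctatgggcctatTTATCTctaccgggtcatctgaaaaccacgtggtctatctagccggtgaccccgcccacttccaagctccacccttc
Psmd5 (chr2:34870963-34871212, minus strand): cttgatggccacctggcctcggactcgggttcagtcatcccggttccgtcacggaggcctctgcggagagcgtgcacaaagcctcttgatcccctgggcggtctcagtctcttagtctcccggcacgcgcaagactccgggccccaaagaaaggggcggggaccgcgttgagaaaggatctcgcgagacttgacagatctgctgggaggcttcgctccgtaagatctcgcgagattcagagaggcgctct
Psme3 (chr11:101315963-101316212, plus strand): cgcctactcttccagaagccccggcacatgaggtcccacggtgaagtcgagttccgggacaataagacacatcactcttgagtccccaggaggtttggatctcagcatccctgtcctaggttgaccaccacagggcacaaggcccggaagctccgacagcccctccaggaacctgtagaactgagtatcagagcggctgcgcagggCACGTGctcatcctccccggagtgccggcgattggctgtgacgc

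The site in Psmc6 is downstream of the start, in the first bases of the transcript, and is shown with its flanks. The antioxidant response element core TGACNNNGC, through which NRF1 acts, was in 6 of the 40 promoters (15.0%), against 16.8% of tested genes. All 6 sites are shown in capitals (as the reverse complement in Psmd12, Psmc6 and Psme4), since the regulator is described further on.
Psmc6, AGATAA (chr14:45329851-45329873): gcggaccctagAGATAAggcgct
Psmb5, TGACNNNGC (chr14:54618024-54618052): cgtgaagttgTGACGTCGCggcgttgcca
Psmb6, TGACNNNGC (chr11:70525338-70525366): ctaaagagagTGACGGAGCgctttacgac
Psmd9, TGACNNNGC (chr5:123228149-123228177): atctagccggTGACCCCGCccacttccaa
Psmd12, TGACNNNGC (chr11:107479278-107479299): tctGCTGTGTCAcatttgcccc
Psmc6, TGACNNNGC (chr14:45329587-45329615): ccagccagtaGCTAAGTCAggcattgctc
Psme4, TGACNNNGC (chr11:30771758-30771786): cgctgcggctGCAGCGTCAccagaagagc
CCAAT was in 14 of the 40 (35%, against 44.5% of tested genes), CACGTG in 4 (10%, against 11.8%) and TCACNCCAC in 0 (against 1.33%). These matches describe letters in a window, and binding was not measured.

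Summed over the whole complex, proteasome mRNA moved little. The 47 genes together held 0.694% to 0.812% of all counts. Their summed level was 7847, 7908 and 7851 CPM in Vector, 6965, 7264 and 7477 in SREBP2, 7382, 7349.6 and 7359.8 in Vector+EST, and 7383, 7299 and 7244 in SREBP2+EST. The 3 Vector libraries were above the other 9, and the other 3 groups overlapped. The sum of the erythroid markers was also highest in Vector (10268 to 10726 CPM, against 6280 to 7432). Single markers in that sum were called in both directions, and its part in this difference was not tested. Beneath this sum, genes moved in opposite directions, as the heat map over libraries shows.

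**Figure D1:**
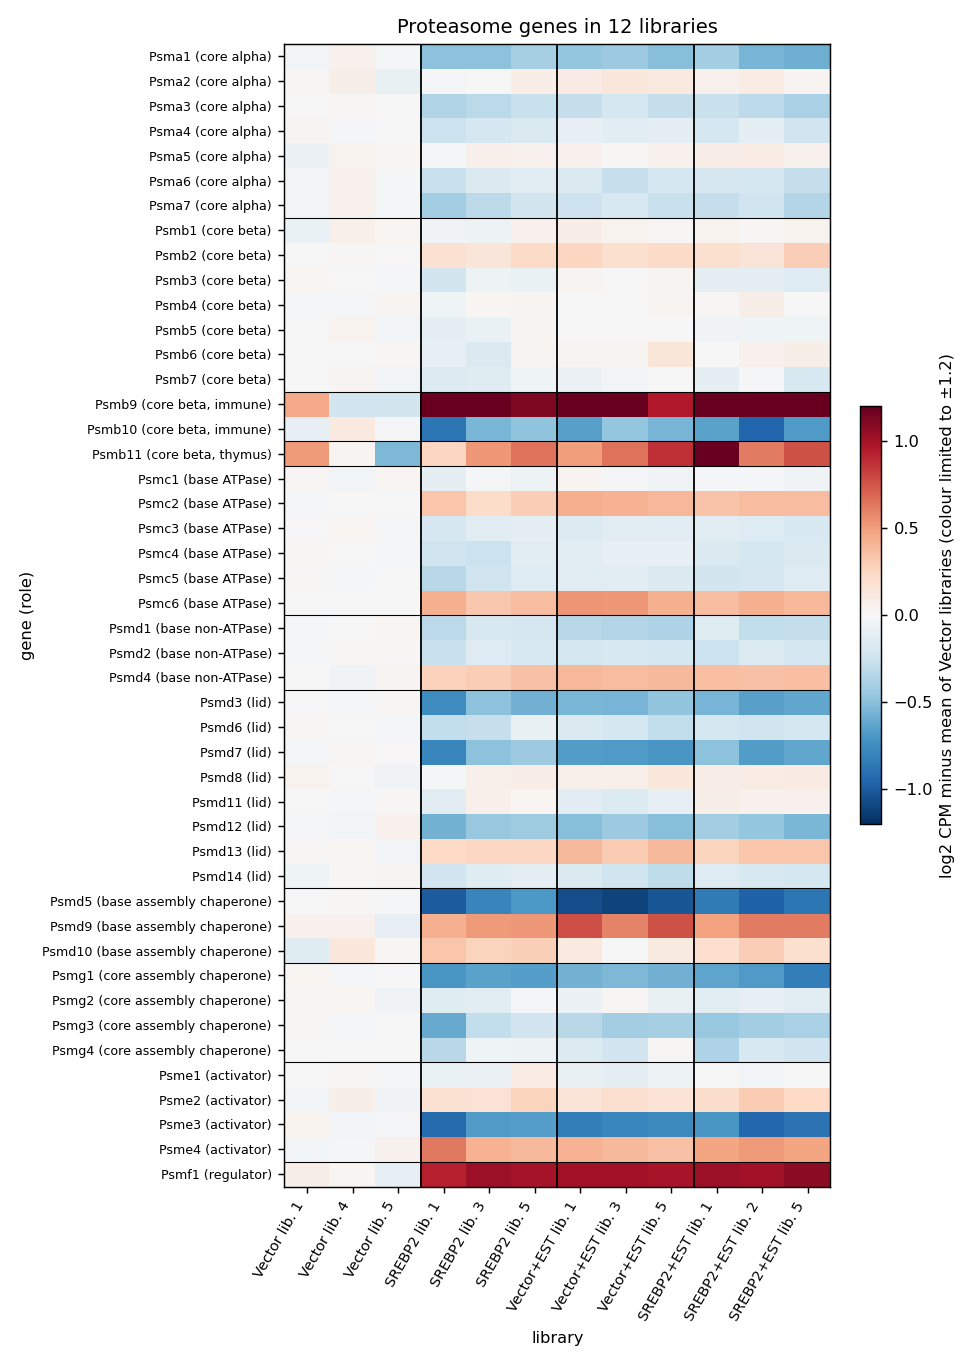
Rows are the 46 tested proteasome genes by role, columns the 12 libraries, and colour the log2 CPM minus the mean of the 3 Vector libraries, limited to ±1.2. Psmf1 is high in all 9 libraries outside Vector (142 to 157 CPM, against 69.6 to 77.9) and Psmd5 is low in them (72.5 to 96.7 CPM, against 155 to 158), while most constitutive beta subunits stay near white.

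Levels per kilobase of the longest protein-coding transcript (GENCODE M21) allow genes to be ordered. In Vector, Psmb4 was highest at 256 ± 5.12 CPM per kb (SD, n = 3), followed by Psmb2 at 238 ± 2.45 and Psmb3 at 222 ± 3.32. Psma7 (218 ± 6.36) came next and did not differ from Psmb3 beyond their spread. The 14 constitutive core subunits, which enter each particle in equal number, spanned a ratio of 4.43 ± 0.104 from highest to lowest, and the 17 base and lid subunits 3.67 ± 0.0641. With the median transcript length these ratios were 2.59 ± 0.192 and 7.07 ± 0.111, so the order within the complex depends on the length used. All 7 assembly chaperones were below every constitutive core subunit, the highest being Psmg1 at 57.1 ± 1.02 CPM per kb against 57.7 ± 0.416 for Psma3, whose ranges overlapped. Psmb8, Psmb9 and Psmb11 stood lowest.

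The first comparison asked what activating GATA1 does in cells without added SREBP2. With EST, Psmf1, the proteasome regulator PI31, rose 2.00-fold, and the base assembly chaperone Psmd9 rose 1.64-fold. Psmd5, the chaperone that holds the base ATPases during assembly, fell to 0.477 of its Vector level, and the nuclear activator Psme3 to 0.577. In all, 33 of the 46 tested genes passed the threshold (12 higher, 21 lower), where 70.6% of all tested genes did so (35.2% higher, 35.5% lower). The share called was thus near the background. Of the 12, Psmb9 had at most 8 counts in Vector and passed the filter through the other groups. The median log2 fold change of the 46 was -0.066, against 0.010 over all genes tested, and the median size of change without sign was 0.23, against 0.37. In these bulk libraries a change in the share of some cells cannot be told apart from a change in RNA per cell.

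The second comparison asked what active SREBP2 does without EST, and it shares its Vector libraries with the first. The paper reports that SREBP2 overexpression brought the GATA1 fusion into the nucleus without EST. GATA1 may thus have been active in these cells too, which the libraries do not measure. Here 33 of 46 genes passed, 11 higher and 22 lower, with 71.5% of all tested genes called (37.7% higher, 33.8% lower). Psmb9 is among the 11, with the same limit as above, and drops out without library 1 of both SREBP2 groups (adjusted p = 0.0563). The median of the proteasome genes was -0.11, against 0.031 for all genes, and the median size 0.22, against 0.39. Psmf1 rose 1.98-fold and Psmd5 fell to 0.565 of its Vector level. Left without library 1 of both SREBP2 groups, the fit called 10 higher and 24 lower here (70.7% of all tested genes) and 10 higher and 22 lower with EST in Vector cells (72.9%). The 2 effects are given side by side for each part of the complex below.

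**Figure D2:**
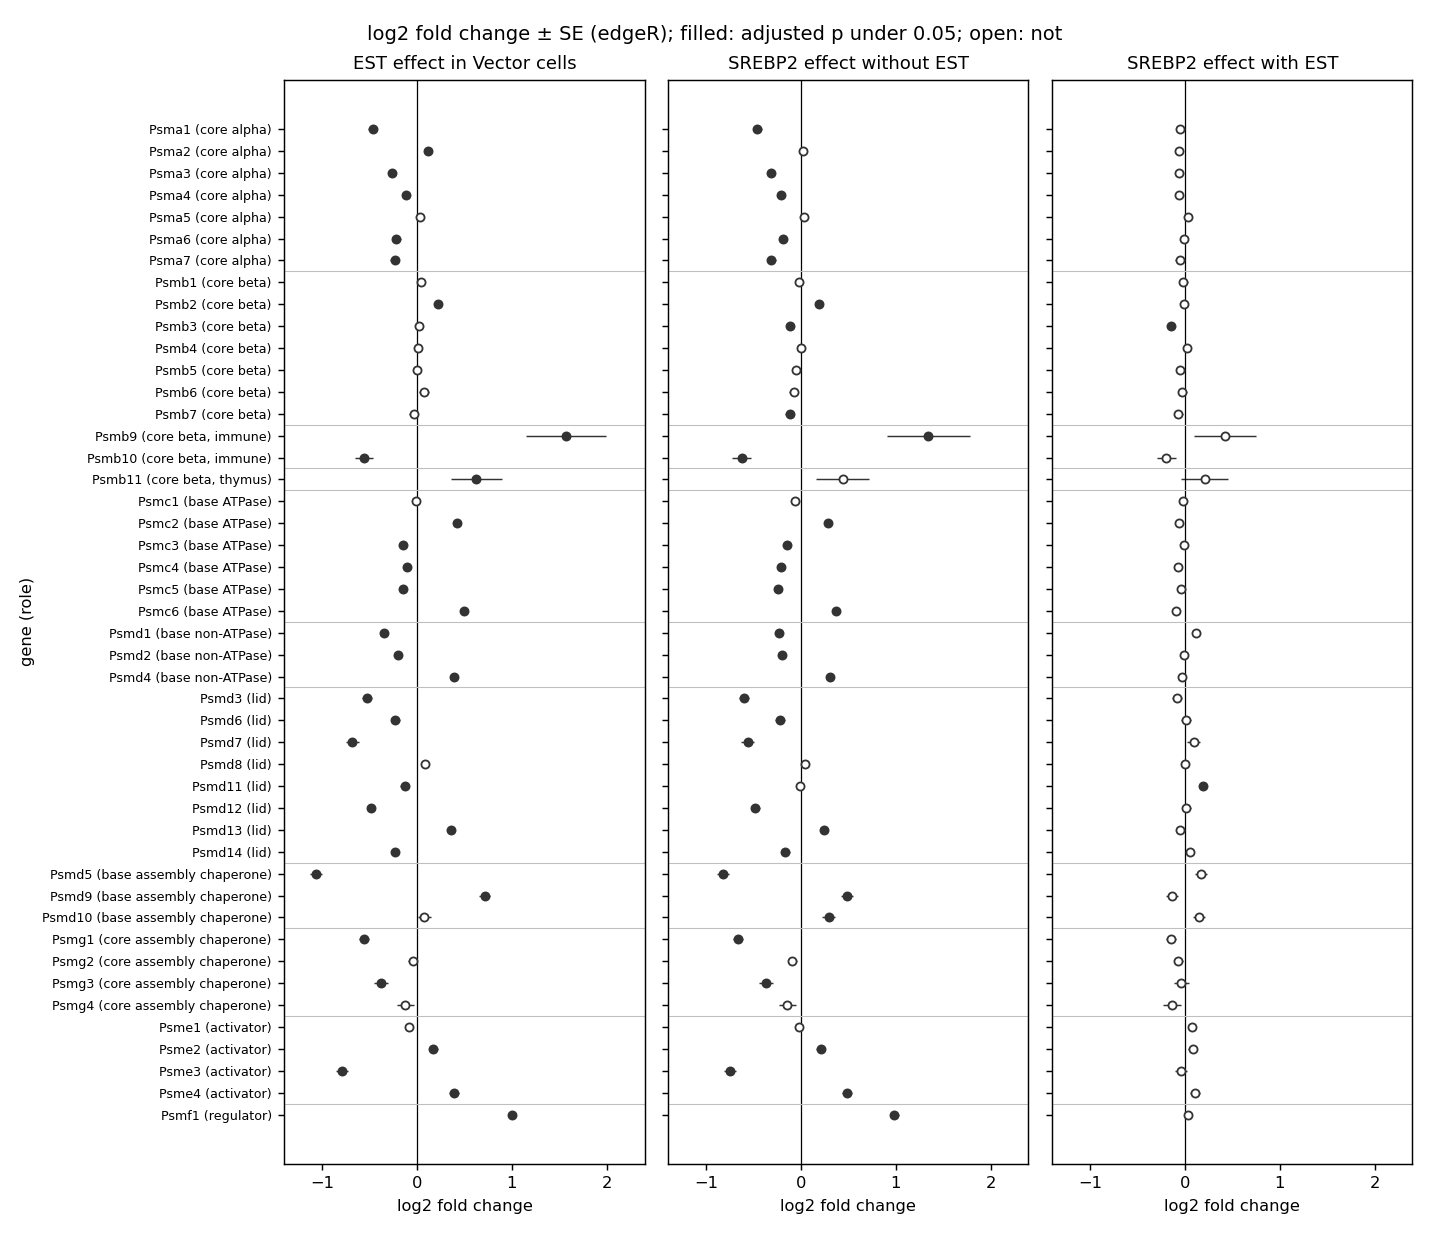
Each point is the edgeR log2 fold change of 1 proteasome gene with its SE, filled where the adjusted p was under 0.05, for EST in Vector cells, SREBP2 without EST and SREBP2 with EST. The first 2 panels each hold 33 filled points on both sides of 0 and the third holds 2, Psmd11 at 0.19 and Psmb3 at -0.15.

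The 3 largest rises with EST among genes whose average log2 CPM was 3 or more were Psmf1, Psmd9 and Psmc6. Psmf1 (Entrez 228769) stood at 77.9, 75.6 and 69.6 CPM in Vector, 142, 152 and 149 in SREBP2, 149.8, 149.7 and 147 in Vector+EST and 152, 149 and 157 in SREBP2+EST. All 9 libraries outside Vector lay above the 3 Vector libraries, with no overlap, and those 9 differed little among themselves. Its log2 fold change was 1.00 ± 0.045 (SE; adjusted p = 1.12e-11 by edgeR) with EST and 0.99 ± 0.045 (SE; adjusted p = 1.19e-11 by edgeR) with SREBP2. Psmd9 (Entrez 67151), a chaperone of the base, stood at 43.9, 44.0 and 39.7 CPM in Vector, 57.1, 60.6 and 60.8 in SREBP2, 72.7, 64.1 and 72.4 in Vector+EST and 59.2, 65.5 and 65.3 in SREBP2+EST. Vector was again lowest, and Vector+EST reached the highest values, overlapping with SREBP2+EST. The log2 fold change of Psmd9 was 0.71 ± 0.062 (SE; adjusted p = 3.38e-08 by edgeR) with EST and 0.48 ± 0.063 (SE; adjusted p = 3.58e-06 by edgeR) with SREBP2. The estimated counts of Psmf1 and Psmd9 carried decimals in 11 of 12 libraries each, as happens where reads are divided between loci, so their levels are less certain than those of most other members.

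The 3 largest falls were those of Psmd5, Psme3 and Psmd7. Psmd5 (Entrez 66998) stood at 155, 158 and 155 CPM in Vector, 78.2, 90.1 and 96.7 in SREBP2, 74.8, 72.5 and 76.6 in Vector+EST and 87.0, 79.6 and 85.5 in SREBP2+EST. The Vector libraries lay far above the rest, and Vector+EST was lowest, below all 6 SREBP2 libraries. Its log2 fold change was -1.07 ± 0.060 (SE; adjusted p = 1.69e-10 by edgeR) with EST and -0.82 ± 0.060 (SE; adjusted p = 3.24e-09 by edgeR) with SREBP2. Psmd7 (Entrez 17463), the lid subunit that pairs with the deubiquitinase Psmd14, stood at 289.5, 295 and 295 CPM in Vector, 171, 208 and 216 in SREBP2, 185, 183 and 180.1 in Vector+EST and 209, 185 and 191 in SREBP2+EST. SREBP2 library 1 was the lowest of all 12 for this gene, and without it SREBP2 would lie above the whole of Vector+EST. Its log2 fold change was -0.68 ± 0.067 (SE; adjusted p = 1.31e-07 by edgeR) with EST and -0.56 ± 0.067 (SE; adjusted p = 1.16e-06 by edgeR) with SREBP2.

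**Figure D3:**
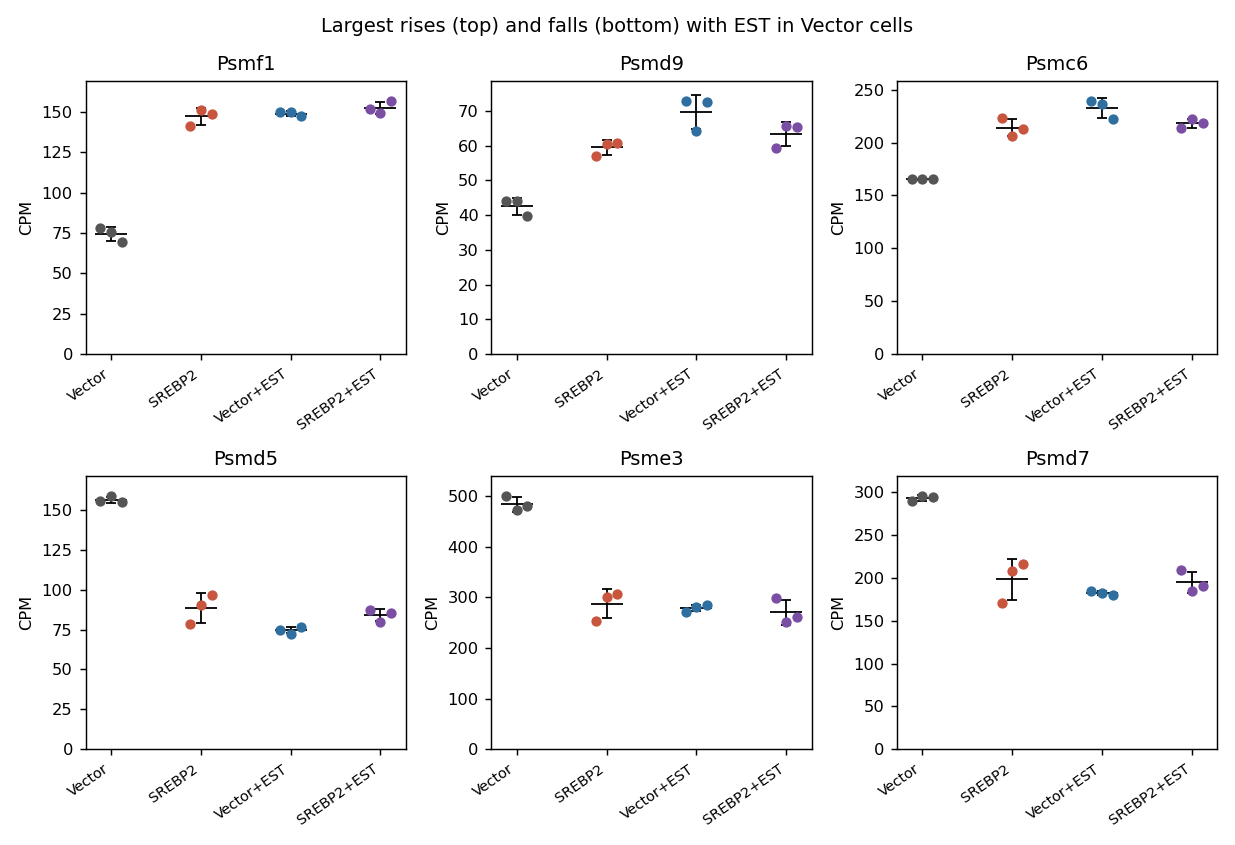
Points are single libraries in CPM, bars the mean and SD of 3 libraries, for the 3 genes with the largest rise (top) and the largest fall (bottom) with EST in Vector cells. In each panel the 3 Vector libraries are separate from the other 9, as with Psmc6 at 165 to 166 CPM against 206 to 239.

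The core is taken ring by ring. Of the 7 alpha subunits, which form the gate of the barrel, 5 fell and 1 rose with EST (median log2 fold change -0.22), and 5 fell with SREBP2 (median -0.21). Over all tested genes 35.5% fell and 35.2% rose with EST, and 33.8% fell and 37.7% rose with SREBP2. Of the 7 constitutive beta subunits, only Psmb2 rose with EST and none fell (median 0.024), and with SREBP2 Psmb2 rose while Psmb3 and Psmb7 fell (median -0.053). The Psmb3 call was lost without Vector library 1 (adjusted p = 0.0538) or SREBP2 library 1 (-0.074, adjusted p = 0.0797). Summed alpha mRNA was 1330.2 ± 31.3 CPM in Vector (SD, n = 3), 1146 ± 46.5 in SREBP2, 1185 ± 9.72 in Vector+EST and 1151 ± 34.4 in SREBP2+EST. Summed beta mRNA was 1282 ± 15.6, 1270.3 ± 45.2, 1330.1 ± 12.2 and 1299 ± 7.01 CPM in the same order.

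Among the alpha subunits Psma1 fell most, with log2 fold changes of -0.47 ± 0.048 (SE; adjusted p = 2.39e-07 by edgeR) with EST and -0.46 ± 0.048 (SE; adjusted p = 2.68e-07 by edgeR) with SREBP2. Psma7 (Entrez 26444), the alpha subunit of highest mean CPM over all libraries (Psma2 was above it in every group but Vector), stood at 246, 260.2 and 249 CPM in Vector, 188, 203 and 217 in SREBP2, 211, 221 and 209 in Vector+EST and 207, 214 and 198 in SREBP2+EST. Its Vector libraries were above all others, and its log2 fold change was -0.24 ± 0.048 (SE; adjusted p = 0.00038 by edgeR) with EST. Psma3 (-0.26 and -0.32), Psma4 (-0.12 and -0.21) and Psma6 (-0.22 and -0.19) fell with EST and with SREBP2. Psma2 rose with EST (0.12, adjusted p = 0.0243), a call lost without library 1 of both SREBP2 groups (0.079, adjusted p = 0.0613), and did not pass with SREBP2 (0.019), and Psma5 passed in neither (0.034 and 0.034). The estimated counts of Psma3 and Psma4 held decimals in 11 and 12 libraries.

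The 3 catalytic beta subunits were nearly level across the groups. Psmb5 (Entrez 19173), which holds the chymotrypsin-like site, stood at 113, 117 and 111 CPM in Vector, 105, 108 and 117 in SREBP2, 114, 114 and 114 in Vector+EST and 110.2, 109.6 and 109.5 in SREBP2+EST. SREBP2+EST lay below Vector and Vector+EST, the other pairs of groups overlapped, and the log2 fold change with EST was 0.0031 ± 0.042 (SE), which did not pass the test (edgeR adjusted p = 0.952). Psmb6 (Entrez 19175), with the caspase-like site, stood at 129, 129 and 131 CPM in Vector, 121, 115 and 132 in SREBP2, 133, 132 and 143 in Vector+EST and 130.3, 134 and 136 in SREBP2+EST. The Vector+EST libraries overlapped with SREBP2+EST and lay above the other groups, but the gene did not pass with EST (0.072 ± 0.049) or with SREBP2 (-0.079 ± 0.049). Psmb7 (Entrez 19177), with the trypsin-like site, stood at 166, 170.4 and 163 CPM in Vector, 149, 150.3 and 161 in SREBP2, 158, 163 and 166 in Vector+EST and 153, 164 and 146 in SREBP2+EST. All SREBP2 libraries were below Vector, with a log2 fold change of -0.12 ± 0.046 (SE; adjusted p = 0.0282 by edgeR), and this call was lost without Vector library 1 (adjusted p = 0.0539), SREBP2 library 1 (0.0767) or SREBP2 library 3 (0.0891).

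Among the other beta subunits, Psmb4 (Entrez 19172), the highest of them in mean CPM, stood at 298, 300.0 and 309 CPM in Vector, 292, 307 and 309.8 in SREBP2, 301, 304 and 309 in Vector+EST and 306, 317 and 303 in SREBP2+EST. The groups overlapped, with log2 fold changes of 0.011 ± 0.035 and 0.0037 ± 0.035 for EST and SREBP2. Psmb2 rose by 0.22 ± 0.041 (SE; adjusted p = 0.000123 by edgeR) with EST and 0.19 ± 0.041 (SE; adjusted p = 0.000652 by edgeR) with SREBP2, and Psmb1 passed in neither (0.046 and -0.018). Psmb3 is described below with the effect of SREBP2 under EST.

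Of the inducible beta subunits, Psmb8 and Psmb9 were scarce in these cells and Psmb10 was well detected. Psmb8 (Entrez 16913) had 0, 0 and 1 counts in Vector, 0, 2 and 1 in SREBP2, 0, 1 and 0 in Vector+EST and 1, 0 and 0 in SREBP2+EST, below the limit of 3 counts in every library, so no difference was detectable at this depth. Psmb9 (Entrez 16912), its neighbour on chromosome 17, had 8, 5 and 5 counts in Vector, 18, 14 and 12 in SREBP2, 18, 24 and 11 in Vector+EST, and 25, 30 and 14 in SREBP2+EST. Vector was lowest without overlap. The gene passed the filter on low counts through the other groups, where it is higher, so its differences from Vector are given as a description. Psmb10 (Entrez 19171), on chromosome 8, stood at 29.2, 34.0 and 31.1 CPM in Vector, 17.2, 21.4 and 22.5 in SREBP2, 20.0, 22.7 and 21.3 in Vector+EST and 20.2, 16.2 and 19.5 in SREBP2+EST. It was lower in all 9 libraries outside Vector, with log2 fold changes of -0.56 ± 0.097 (SE; adjusted p = 8.14e-05 by edgeR) with EST and -0.63 ± 0.098 (SE; adjusted p = 2.57e-05 by edgeR) with SREBP2.

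Set against their constitutive counterparts per kilobase in Vector, Psmb10 stood at 24.0 ± 1.82 CPM per kb beside 143 ± 3.17 for Psmb7, and Psmb9 at 0.227 ± 0.0662 beside 162 ± 1.25 for Psmb6. Psmb11 (Entrez 73902), the beta subunit of the thymic cortex, was between 0.623 and 2.06 CPM. Its rise with EST (0.62 ± 0.27, adjusted p = 0.0498) lay at the threshold and was lost without library 1 of both SREBP2 groups (adjusted p = 0.0587), the groups overlapped, and its estimated counts held decimals in 11 libraries.

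**Figure D4:**
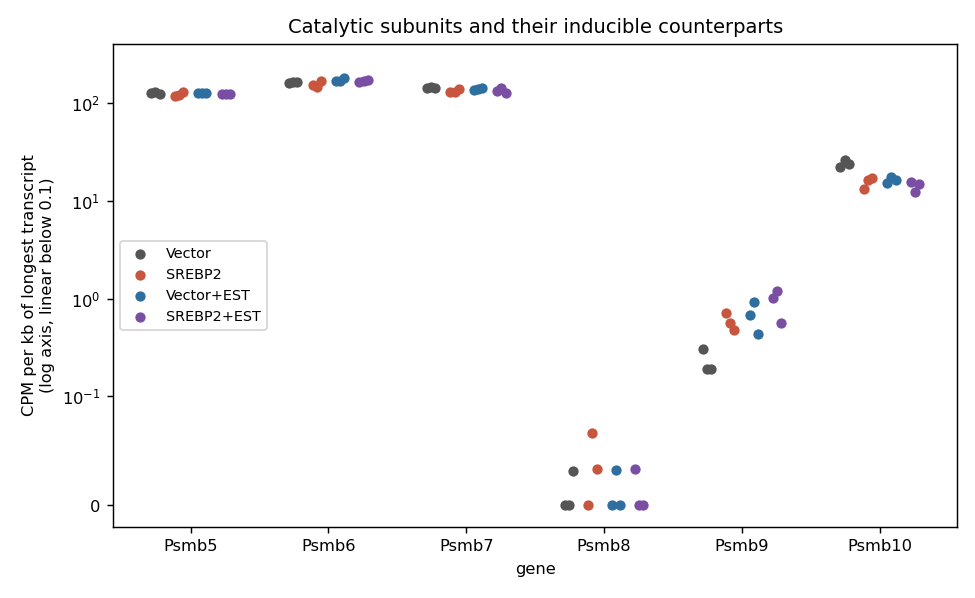
Points are single libraries in CPM per kb of the longest transcript, on a log axis that is linear below 0.1, for the constitutive catalytic subunits (Psmb5, Psmb6, Psmb7) and their inducible counterparts (Psmb8, Psmb9, Psmb10). The constitutive genes lie together at the top in every group, Psmb10 falls from 24.0 in Vector to 14.2 in SREBP2+EST on average, and Psmb8 is at or near 0.

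In the base, the ring of 6 ATPases that unfolds substrates was split. Psmc2 and Psmc6 rose, and Psmc3, Psmc4 and Psmc5 fell, with EST and with SREBP2 alike. Psmc1 passed in neither (-0.010 and -0.066), although without library 1 of both SREBP2 groups it was lower with SREBP2 (-0.082, adjusted p = 0.0435). Psmc6 (Entrez 67089) stood at 166, 165 and 165 CPM in Vector, 223, 206 and 213 in SREBP2, 239, 237 and 222 in Vector+EST and 214, 222 and 218 in SREBP2+EST, and its log2 fold change was 0.49 ± 0.040 (SE; adjusted p = 1.24e-08 by edgeR) with EST and 0.37 ± 0.040 (SE; adjusted p = 3.35e-07 by edgeR) with SREBP2. Psmc2 averaged 207 ± 1.57 CPM in Vector (SD, n = 3) and 277 ± 3.61 in Vector+EST, and rose by 0.42 with EST and 0.28 with SREBP2. Psmc4 (Entrez 23996), the ATPase of highest mean CPM over all libraries (Psmc2 was above it in every group but Vector), stood at 287, 281 and 279 CPM in Vector, 239, 236 and 258 in SREBP2, 258, 264 and 264 in Vector+EST and 251, 243 and 250.5 in SREBP2+EST. It was lower outside Vector without overlap. The log2 fold change was -0.11 ± 0.037 (SE; adjusted p = 0.0178 by edgeR) with EST, a call that was lost without Vector library 1 (adjusted p = 0.064) or Vector+EST library 1 (0.0647), and -0.21 ± 0.037 (SE; adjusted p = 0.000103 by edgeR) with SREBP2. Psmc3 (-0.14 and -0.14) and Psmc5 (-0.15 and -0.24) fell as well. The ATPases together held 1228 ± 4.46 CPM in Vector and 1307 ± 15.5 in Vector+EST.

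The base scaffolds fell and the ubiquitin receptor rose. Psmd1 (Entrez 70247), a large scaffold subunit with the highest mean CPM of its class over all libraries (Psmd4 was above it in every group but Vector), stood at 390.2, 395 and 400.5 CPM in Vector, 319, 347 and 345 in SREBP2, 314, 309 and 305 in Vector+EST and 357, 322 and 324 in SREBP2+EST. Vector+EST was lowest and did not overlap with any other group, and the log2 fold change was -0.35 ± 0.043 (SE; adjusted p = 1.98e-06 by edgeR) with EST and -0.23 ± 0.043 (SE; adjusted p = 0.000166 by edgeR) with SREBP2. Psmd2, the other scaffold, had log2 fold changes of -0.20 with EST and -0.20 with SREBP2, both past the threshold. Psmd4, which binds ubiquitin chains, rose from 277 ± 6.66 CPM in Vector to 362 ± 3.32 in Vector+EST and 343 ± 9.70 in SREBP2, log2 fold changes of 0.39 and 0.31.

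Of the 8 lid subunits, 6 fell and 1 rose with EST, and 5 fell and 1 rose with SREBP2 (median log2 fold changes -0.23 and -0.19), where 35.5% and 33.8% of all tested genes fell. Summed lid mRNA was 1636 ± 3.81 CPM in Vector, 1374 ± 82.0 in SREBP2, 1367 ± 12.5 in Vector+EST and 1392 ± 23.2 in SREBP2+EST. Psmd8 (Entrez 57296), the lid gene of highest mean CPM, stood at 303, 295 and 286 CPM in Vector, 291, 307 and 312 in SREBP2, 307, 307 and 322 in Vector+EST and 311, 313 and 315 in SREBP2+EST. It passed in neither comparison (0.083 ± 0.037 and 0.043 ± 0.037). The next falls with EST after Psmd7 were those of Psmd3 (-0.53 with EST, -0.60 with SREBP2) and Psmd12 (-0.49 and -0.48), and with SREBP2 Psmd3 fell most. Psmd6 (-0.23 and -0.22) and Psmd14, the deubiquitinase of the lid (-0.24 and -0.16), fell less. Psmd13 rose in both, by 0.36 and 0.25, and Psmd11 fell with EST (-0.13; lost without Vector+EST library 3, adjusted p = 0.0619) and had -0.010 with SREBP2 (adjusted p = 0.85).

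Assembly chaperones held both the largest fall, Psmd5, and one of the largest rises, Psmd9. Psmd10 (gankyrin; Entrez 53380), the other base chaperone measured, stood at 23.2, 28.0 and 25.8 CPM in Vector, 32.2, 30.7 and 31.2 in SREBP2, 27.8, 25.7 and 27.5 in Vector+EST and 29.4, 31.3 and 29.1 in SREBP2+EST. The SREBP2 libraries were above both Vector and Vector+EST, with a log2 fold change of 0.29 ± 0.067 (SE; adjusted p = 0.000989 by edgeR) with SREBP2 and 0.074 ± 0.067 with EST, which did not pass. Psmg1 (Entrez 56088), which with Psmg2 starts the alpha ring, stood at 60.7, 58.7 and 59.4 CPM in Vector, 36.8, 38.1 and 37.8 in SREBP2, 40.1, 41.0 and 40.1 in Vector+EST and 38.4, 37.2 and 33.6 in SREBP2+EST. Its level was lower outside Vector without overlap, with log2 fold changes of -0.56 ± 0.050 (SE; adjusted p = 4.64e-08 by edgeR) with EST and -0.67 ± 0.051 (SE; adjusted p = 5.84e-09 by edgeR) with SREBP2. Psmg2, its partner in the same heterodimer, passed in neither (-0.045 and -0.094), although without library 1 of both SREBP2 groups it was lower with SREBP2 (-0.11, adjusted p = 0.0454). Psmg3 fell in both (-0.38 and -0.37) and its partner Psmg4 passed in neither (-0.12 and -0.14).

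The activators also moved apart. Psme3 (Entrez 19192), the subunit of a nuclear activator that works without ubiquitin, stood at 499.7, 472 and 479.9 CPM in Vector, 254, 301 and 307 in SREBP2, 272, 281 and 285 in Vector+EST and 299, 252 and 262 in SREBP2+EST. Vector was highest without overlap, and the log2 fold change was -0.79 ± 0.066 (SE; adjusted p = 1.87e-08 by edgeR) with EST and -0.75 ± 0.066 (SE; adjusted p = 3.31e-08 by edgeR) with SREBP2. Psme4 (Entrez 103554), the activator linked to histone turnover, stood at 164, 165 and 174 CPM in Vector, 259.5, 224 and 220.0 in SREBP2, 224, 219 and 214 in Vector+EST and 232, 239.7 and 233 in SREBP2+EST. It was higher in all 9 libraries outside Vector, with log2 fold changes of 0.39 ± 0.053 (SE; adjusted p = 6.75e-06 by edgeR) with EST and 0.48 ± 0.053 (SE; adjusted p = 4.84e-07 by edgeR) with SREBP2. Of the genes of the interferon-inducible activator, Psme2 rose (0.17 and 0.21) and Psme1 did not pass (-0.087 and -0.018), although without library 1 of both SREBP2 groups it was lower with EST (-0.12, adjusted p = 0.00531), and both lie on chromosome 14. The estimated counts of Psme2 and Psme4 held decimals in all 12 libraries.

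The third comparison asked what active SREBP2 adds in cells given EST. Only 2 of the 46 proteasome genes passed, 1 higher and 1 lower, while 21.9% of all tested genes did so (14.0% higher, 7.94% lower). At an unadjusted p under 0.05 the counts were 8 of 46 and 3779 of 11177. The median log2 fold change was -0.024 for the proteasome genes and -0.0048 for all genes, and the median size 0.061 against 0.12. Psmd11 (Entrez 69077), a lid subunit that touches both core and base, stood at 179, 175 and 179 CPM in Vector, 163, 186 and 181 in SREBP2, 163, 159 and 166 in Vector+EST and 187, 184 and 184 in SREBP2+EST. It rose by 0.19 ± 0.045 (SE; adjusted p = 0.00608 by edgeR), with SREBP2+EST above Vector+EST in all libraries. Psmb3 (Entrez 26446), a beta subunit without a protease site, stood at 173, 170.2 and 167 CPM in Vector, 146, 163 and 161 in SREBP2, 174, 171 and 174 in Vector+EST and 157, 158 and 153 in SREBP2+EST. Its log2 fold change was -0.15 ± 0.042 (SE; adjusted p = 0.0162 by edgeR).

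Without library 1 of both SREBP2 groups, 9 of 46 passed in this comparison (3 higher, 6 lower), with 30.7% of all tested genes called. The 9 were Psmd11 (0.18), Psmd5 (0.14), Psme4 (0.11), Psmb10 (-0.26), Psmg1 (-0.19), Psmb3 (-0.16), Psme3 (-0.12), Psmd3 (-0.11) and Psma1 (-0.11). Without SREBP2 library 1 and SREBP2+EST library 5 the count was 3 higher and 1 lower (22.4%). Scaling by library totals gave 1 higher and 7 lower among the members, and 1292 higher and 1768 lower among all genes, where TMM gave 1560 and 888. The directions of change in this comparison are therefore relative to the scaling used. Psmb3 lost its call without Vector+EST library 1 (adjusted p = 0.0578) or SREBP2+EST library 5 (0.059), which left 0 lower, and leaving out single libraries gave 1 to 4 higher and 0 to 2 lower.

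The fourth comparison asked what EST adds in cells that already have active SREBP2. No proteasome gene passed, and 0% of the 11177 tested genes did so in edgeR's quasi-likelihood test. At an unadjusted p under 0.05 the counts were 2 of 46 and 506 of 11177, and DESeq2 called 0 members, with 1 higher and 11 lower over all genes. The log2 fold changes of the members ran from -0.13 (Psmb10) to 0.65 (Psmb9), with a median of 0.0086 against 0.00040 over all genes. Without library 1 of both SREBP2 groups 5 members passed, Psmc2 higher (0.11) and Psme3 (-0.24), Psmd5 (-0.18), Psmd7 (-0.18) and Psmb10 (-0.29) lower, with 13.9% of all tested genes called. Without SREBP2 library 1 and SREBP2+EST library 5 instead, 0 members and 0 of 11293 genes passed. Whether any gene passed thus depended on which libraries were left out.

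Set directly against EST alone, SREBP2 alone gave 8 called members, 2 higher and 6 lower, where 23.4% of all tested genes were called (14.4% higher, 8.96% lower). Psmd5 (0.24 ± 0.062, edgeR adjusted p = 0.00938) and Psmd10 (0.22 ± 0.066, edgeR adjusted p = 0.0275) were higher with SREBP2 than with EST. The Psmd10 call was lost without SREBP2 library 1, 3 or 5, or Vector+EST library 3 (edgeR adjusted p = 0.114) or 5. It was also lost by DESeq2 (adjusted p = 0.0523) and with scaling by library totals (edgeR adjusted p = 0.07). Psmd5 lost its call without SREBP2 library 5. Psmd9 (-0.23 ± 0.061, edgeR adjusted p = 0.0119), Psmb6 (-0.15), Psmb3 (-0.15), Psmc2 (-0.14), Psmc6 (-0.12) and Psmd13 (-0.11) were lower with SREBP2 than with EST. The Psmc6 call was lost without Vector library 1, 4 or 5, or SREBP2 library 3 (edgeR adjusted p = 0.162) or 5. It was also lost without Vector+EST library 1 (0.145) or 3, or SREBP2+EST library 2 or 5. Psmb6 lost its call without SREBP2 library 1 or 3 (0.172), or Vector+EST library 1 or 5 (0.164). Psmb3 lost it without SREBP2 library 1, or Vector+EST library 1 or 5, and Psmd9 without Vector+EST library 1 or 5. The median over the members was -0.044, against -0.0040 over all genes. Leaving out single libraries gave 0 to 4 higher and 1 to 6 lower. Without SREBP2 library 5 none was higher, and without Vector+EST library 1 only 1 was lower. Without library 1 of both SREBP2 groups the count was 6 higher and 6 lower (34.4% of all tested genes), without SREBP2 library 1 and SREBP2+EST library 5 it was 4 and 3 (29.0%), and by library totals 1 higher and 14 lower, with 1365 higher and 1868 lower over all genes against 1615 and 1002.

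The interaction is the EST effect in SREBP2 cells minus that in Vector cells. It passed in 29 of 46 members, 21 higher and 8 lower, where 59.0% of all tested genes passed (29.8% higher, 29.2% lower), and its median was 0.049 against -0.0034 over all genes. Without library 1 of both SREBP2 groups the count was again 21 higher and 8 lower (57.1% of all tested genes), and without SREBP2 library 1 and SREBP2+EST library 5 it was 18 and 8 (55.9%). The EST effect in Vector cells enters it with a minus sign. The 3 most positive values were those of Psmd5 (1.00 ± 0.086, edgeR adjusted p = 6.65e-08), Psme3 (0.71 ± 0.093) and Psmd7 (0.66 ± 0.095). Among genes whose average log2 CPM was 3 or more, the most negative were Psmf1 (-0.95 ± 0.063, edgeR adjusted p = 2.86e-09), Psmd9 (-0.62 ± 0.087) and Psmc6 (-0.47 ± 0.056). By role, 6 of 8 lid genes and 5 of 7 alpha genes were higher, while 1 of 7 constitutive beta genes (Psmb2, -0.19) passed. The interaction and the effects above are built from the same libraries.

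Among 10 genes that control the proteasome genes, Nfe2l1, which encodes NRF1, had the largest change with SREBP2 under EST. It stood at 69.0, 69.2 and 70.1 CPM in Vector, 263, 271 and 254 in SREBP2, 68.4, 73.2 and 71.6 in Vector+EST and 253, 250.2 and 236 in SREBP2+EST. All 6 SREBP2 libraries were far above the 6 without SREBP2, whether EST was given or not. The log2 fold change was 1.92 ± 0.042 (SE; adjusted p = 2.12e-15 by edgeR) with SREBP2 and 1.79 ± 0.042 (SE; adjusted p = 1.14e-14 by edgeR) with SREBP2 under EST, and 0.033 ± 0.044 with EST, which did not pass (adjusted p = 0.513). Under EST the proteasome genes had a median of -0.024 for the same comparison. Of the 6 genes with a TGACNNNGC site, Psmb5 (-0.055), Psmb6 (-0.029), Psmd9 (-0.14), Psmd12 (0.011), Psmc6 (-0.093) and Psme4 (0.10), 0 passed there, where 21.9% of all tested genes did. With SREBP2 without EST, 4 of the 6 passed, Psmd9 (0.48), Psme4 (0.48) and Psmc6 (0.37) higher and Psmd12 (-0.48) lower, where 71.5% of all tested genes did. The site was no more frequent among members (15.0%) than among all tested genes (16.8%). NRF1 is held as a membrane protein until cut, and neither its protein nor its cut form was measured. Its part in the values of the proteasome genes was not tested.

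**Figure D5:**
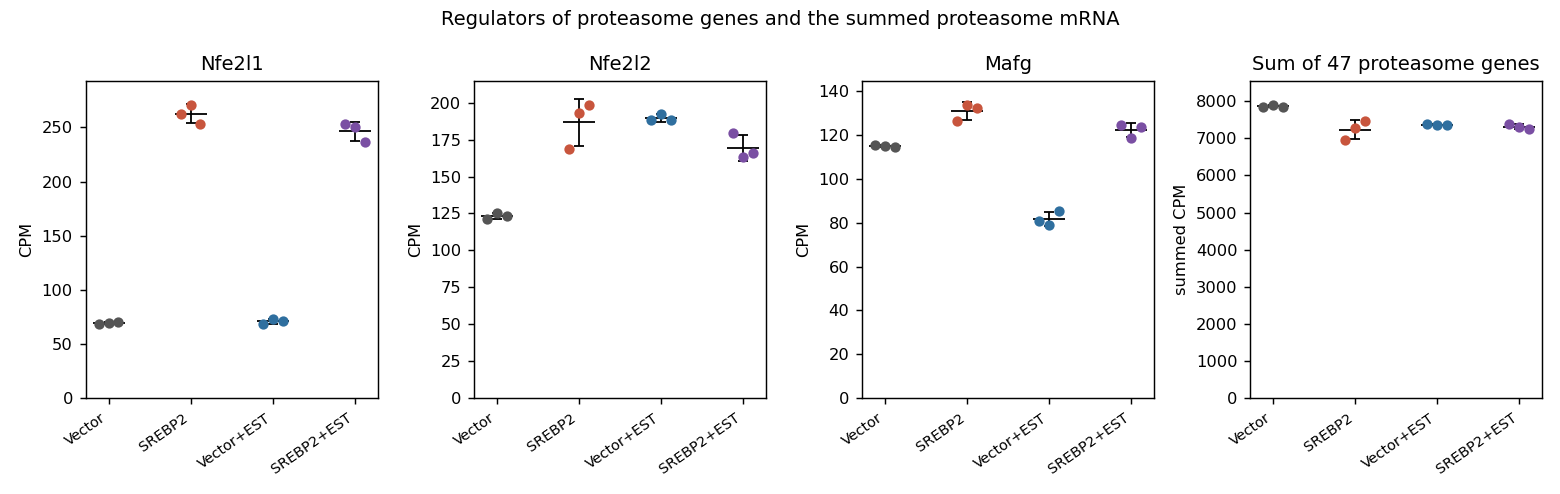
Points are single libraries and bars the mean and SD of 3, in CPM, for the regulators Nfe2l1, Nfe2l2 and Mafg and for the sum of the 47 proteasome genes. Nfe2l1 is at 236 to 271 CPM in the 6 SREBP2 libraries and 68.4 to 73.2 in the other 6, while the sum lies between 6965 and 7908 CPM throughout.

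The small MAF partners of NRF1 differed among themselves. Mafg stood at 115, 115 and 114 CPM in Vector, 126, 134 and 132 in SREBP2, 80.9, 79.1 and 85.2 in Vector+EST and 125, 119 and 123 in SREBP2+EST, and Vector+EST was lowest without overlap (log2 fold change -0.49 ± 0.041, edgeR adjusted p = 1.86e-08 with EST). Under EST, SREBP2 raised it by 0.58 ± 0.041 (SE; adjusted p = 1.64e-08 by edgeR). Mafk rose by 1.31 ± 0.054 with EST and 1.57 ± 0.054 with SREBP2, and Maff was scarce (at most 3.92 CPM) and highest with SREBP2 (1.54 ± 0.18 under EST). Nfe2l2, the related stress factor, stood at 121, 125 and 123 CPM in Vector, 168, 193 and 199 in SREBP2, 188, 192 and 188 in Vector+EST and 179.7, 163 and 166 in SREBP2+EST, and rose by 0.62 ± 0.055 (SE; adjusted p = 4.02e-08 by edgeR) with EST and 0.60 ± 0.055 (SE; adjusted p = 5.85e-08 by edgeR) with SREBP2. Ddi2, the protease that cuts NRF1, fell with EST (-0.31) and with SREBP2 (-0.40), and Ngly1, which strips its glycans, passed in neither (0.16 and 0.057). Vcp, which pulls it from the membrane, was lower with EST (-0.21) and higher with SREBP2 under EST (0.20). Of the 10 control genes, 4 were higher and 4 lower with EST, 7 higher and 1 lower with SREBP2, and 6 higher and 2 lower with SREBP2 under EST, where 70.6%, 71.5% and 21.9% of all tested genes passed. The 2 lower, Ddi2 (-0.22) and Nfe2l2 (-0.16), both lost the call without Vector library 1 (adjusted p = 0.0503 and 0.0597) or 5, SREBP2 library 3, Vector+EST library 1 (0.154 and 0.0909) or 3, or SREBP2+EST library 2 or 5, which left 0 lower. Without Vector library 4 Ddi2 lost it, and without Vector+EST library 5 Nfe2l2 did, which left 1.

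Proteins that associate with the particle or supply its substrates were read from lists beside the members. Of 11 tested associated genes, 6 were higher and 4 lower with EST, 4 higher and 3 lower with SREBP2, and 1 higher and 1 lower with SREBP2 under EST. Over all tested genes the shares higher and lower were 35.2% and 35.5% with EST, 37.7% and 33.8% with SREBP2, and 14.0% and 7.94% with SREBP2 under EST. Adrm1, the ubiquitin receptor that docks on the base scaffold Psmd1, had log2 fold changes of -0.47 ± 0.059 with EST and -0.44 ± 0.059 with SREBP2, whereas Usp14, a deubiquitinase of the base, rose by 0.38 ± 0.036 and 0.36 ± 0.036, and Pomp, which assembles the beta ring, passed in neither (-0.00065 and 0.029). Ecpas, an adaptor of the particle, rose by 0.31 and 0.29. All 11 tested ubiquitin supply and shuttle genes passed with EST, 8 higher and 3 lower, and 10 with SREBP2, 7 higher and 3 lower, where 70.6% and 71.5% of all tested genes passed. With SREBP2 under EST, 1 was higher and 1 lower. Uba1, the main ubiquitin-activating enzyme, rose by 0.55 ± 0.032 with EST and 0.48 ± 0.032 with SREBP2, and Ubb by 0.26 and 0.25. The shuttles were split, with Ubqln2 higher (0.74 and 0.67) and Ubqln4 (-0.82 and -0.89) and Rad23b (-0.52 and -0.58) lower.

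Genes of MHC class I peptide presentation, the route served by inducible subunits, were read beside them. With SREBP2 under EST, 6 of 9 tested were higher and 0 lower, where 14.0% of all tested genes were higher and 7.94% lower. With EST in Vector cells 0 were higher and 5 lower (35.2% and 35.5% of all tested genes), and with SREBP2 without EST 5 and 2 (37.7% and 33.8%). Tapbp, which loads peptides, stood at 30.1, 26.7 and 32.0 CPM in Vector, 37.3, 42.5 and 46.4 in SREBP2, 14.9, 13.9 and 16.3 in Vector+EST and 44.1, 40.8 and 40.0 in SREBP2+EST. It was lowest in Vector+EST, and SREBP2 under EST raised it by 1.47 ± 0.091 (SE; adjusted p = 3.10e-09 by edgeR). B2m, the light chain, rose by 0.47 ± 0.050 (SE; adjusted p = 2.66e-06 by edgeR) in that comparison, H2-K1 by 1.16 ± 0.17 and H2-D1 by 0.63 ± 0.061. There Psmb10 had a log2 fold change of -0.20 ± 0.10 (adjusted p = 0.197), and Psmb9 had 11 to 24 counts in Vector+EST and 14 to 30 in SREBP2+EST, which overlap. Tap1, the transporter gene next to Psmb9, passed in neither comparison (-0.12 with EST and 0.15 with SREBP2 under EST). Fibroblast marker sums overlapped between Vector+EST (4.74 to 34.7 CPM) and SREBP2+EST (23.1 to 39.1 CPM), with 1 of the 6 markers called higher, and their part in this list was not tested.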

How the data were processed

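Poly(A) RNA of 12 libraries, 3 for each of 4 groups, was sequenced as single-end 50-base reads on a DNBSEQ instrument. Per the labels, the deposited table holds estimated counts per gene made by the authors, and their processing notes name HISAT2 2.0.4, Bowtie2 2.2.5, RSEM 1.2.12, DESeq2 1.4.5 and the build GRCm38.p6, with no role for each. Strand use in counting is not given in the sources used here. Of all values, 66.5% were whole numbers, so reads shared between loci had been divided. A second deposited table of the authors' fold changes and p-values was not used.

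Counts were rounded and tested in R 4.3.3 with edgeR 4.0.16 (TMM scaling, filterByExpr, quasi-likelihood F-test, all 12 libraries in 1 fit, Benjamini-Hochberg adjustment over 11177 genes, threshold 0.05). Adjusted p-values in the text come from this fit unless another setting is named. For the log2 distances and correlations between libraries the prior count was set to 2. Fold changes by edgeR were taken from its fit without that setting. Figures and sequences were made with python 3.11.15, and the fit was tested on simulated data. Library totals of 18700959 to 19152281 limit the precision. Levels per kilobase used GENCODE M21 transcript lengths, and promoters came from RefSeq.

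The members and all lists were chosen with earlier results of these data known. Values in every library are given for the catalytic and inducible beta subunits, for up to 3 members with the largest called rise and fall in each comparison with an average log2 CPM of 3 or more, and for the most abundant member of each role. Alternatives were 2 other scalings, DESeq2 1.42.0, 2 other filters, a fit of only the groups compared, the header number as a block, libraries left out (1 such pair chosen after seeing the data), and the median transcript length.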

Additional observations from a re-analysis of the deposited data

Results flagged for a closer look

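The effect of EST differed between SREBP2 cells and Vector cells in 29 of the 46 tested proteasome genes by edgeR's interaction term, against 59.0% of all tested genes. The named genes with the largest such differences, on the log2 scale, were Psmd5 (1.00), Psme3 (0.71) and Psmd7 (0.66), which EST lowered in Vector cells, and Psmf1 (-0.95), Psmd9 (-0.62) and Psmc6 (-0.47), which EST raised there. In SREBP2 cells the log2 change of these 6 genes with EST did not pass the test, and leaving out library 1 of both SREBP2 groups brought Psmd5, Psme3 and Psmd7 past it as falls of -0.18, -0.24 and -0.18.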

How the results depend on the processing

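The counts of members that rose and fell with EST in Vector cells, and with SREBP2 without EST, stayed within 1.5 times their values under every alternative tried. Over the named genes called above (with Psmb5, Psmb6, Psmb7 and Nfe2l1 also where not called) and all alternatives, 1391 results kept direction and side of the threshold, 86 fell short of it, 4 newly passed it and 14 reversed. All 14 reversals were those of Psmb5 and Nfe2l1 with EST in Vector cells, neither of which was called there. The values below are log2 fold changes or counts of members, and the cause of a change was not tested unless the alternative itself removed genes or libraries.

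With scaling by relative log expression, 3 members were lower with SREBP2 under EST, and Psmb5 had -0.014 with EST. With library totals the median was -0.16 with SREBP2 without EST, 1 was higher and 7 lower with SREBP2 under EST (median -0.069), 1 was higher and 14 lower for SREBP2 against EST (median -0.087), and Psmb5 had -0.012. Over all genes the split with SREBP2 without EST was 3773 higher and 4213 lower, against 4214 and 3773. DESeq2 gave 2 lower with SREBP2 under EST, 1 higher for SREBP2 against EST, and -0.014 for Psmb5. Without the low-count filter 2 were higher with SREBP2 under EST. With at least 10 counts in every library, which removed genes, the medians were -0.12 with EST, -0.15 with SREBP2 and 0.083 for the interaction, 2 were higher with SREBP2 under EST, 4 higher for SREBP2 against EST, and Psmb5 (-0.032) and Nfe2l1 (-0.0017) reversed with EST. Fitting only the groups compared gave 2 higher with SREBP2 under EST and 2 lower for SREBP2 against EST, and allows no interaction.

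Same-numbered libraries did not deviate together (correlations of -0.174 to 0.0674), so no large shared effect was seen. With 3 libraries a group this cannot tell whether a number marks a shared culture or day. With the header number as a replicate block, SREBP2 under EST gave 0 higher and 0 lower, SREBP2 against EST 2 lower and the interaction 11 higher.

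Without library 1 of both SREBP2 groups, the median was -0.10 with EST and 0.082 for the interaction, SREBP2 under EST gave 3 higher and 6 lower, EST in SREBP2 cells 1 higher and 4 lower, SREBP2 against EST 6 higher (median -0.012), and Psmb5 (-0.034) and Nfe2l1 (-0.0041) reversed with EST. Chosen after seeing the data, leaving out SREBP2 library 1 and SREBP2+EST library 5 gave a median of -0.069 with SREBP2, 3 higher with SREBP2 under EST, and 4 higher and 3 lower for SREBP2 against EST (median -0.0090). The median transcript length gave highest to lowest ratios of 2.59 in the core and 7.07 in base and lid.

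Leaving out 1 library at a time, the median ranged from -0.12 (without Vector library 5) to -0.059 with EST, from -0.16 (without Vector library 5) to -0.069 (without SREBP2 library 1) with SREBP2, from -0.017 to 0.044 (without SREBP2 library 5) for EST in SREBP2 cells, from -0.064 to -0.0089 for SREBP2 against EST and from 0.033 to 0.10 for the interaction. With SREBP2 under EST the count ran from 1 to 4 higher (4 without SREBP2 library 1, 2 without SREBP2 library 5 or SREBP2+EST library 2) and from 0 to 2 lower (0 without Vector+EST library 1 or SREBP2+EST library 5, 2 without SREBP2 library 1, Vector+EST library 3 or SREBP2+EST library 1). For SREBP2 against EST it ran from 0 (without SREBP2 library 5) to 4 higher (without SREBP2 library 1), with 1 without SREBP2 library 3, Vector+EST library 3 or Vector+EST library 5, and from 1 (without Vector+EST library 1) to 6 lower, with 3 without SREBP2 library 1 and 2 without SREBP2 library 3 or Vector+EST library 5. Psmb5 ranged from -0.051 to 0.0054 and Nfe2l1 from -0.0086 to 0.060 with EST. Depth limits what can be said of Psmb8 and Psmb9.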
